A study of Mus musculus with 16 samples.

Results

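Efferocytosis is the uptake of dying cells by macrophages and other phagocytes. Dying cells display phosphatidylserine, bridging proteins bind this lipid, and receptors on the phagocyte bind the bridging protein or the lipid itself. Receptor signals then reach RAC through adaptors such as ELMO1, and the cell is engulfed. In the infarcted mouse heart, loss of Mertk or Mfge8 is known to impair the clearance of dead cardiomyocytes. The genes described here are 10 of the 19505 genes tested, chosen by name: the TAM receptor tyrosine kinase genes Mertk, Axl and Tyro3, the bridging protein genes Gas6, Pros1 and Mfge8, the receptor genes Stab1, Lrp1 and Itgav, and the adaptor gene Elmo1. Each was named by the platform annotation and had 1 probe set.

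The samples were hearts of male C57BL/6 mice 10 weeks old, wild type per the labels, with 4 hearts and 4 arrays in each of 4 groups. The groups were sham surgery and ischemia, with the left anterior descending artery tied for 30 min, then 6, 24 or 72 h of reperfusion. No hours are stated for sham hearts, and all 3 times were set against the same 4 sham arrays, so a change with time after surgery cannot be told apart from one with reperfusion. RNA came from hearts, so fewer cells of a type and less RNA per cell cannot be told apart either, and neither can injured and spared muscle.

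Values are log2 signals on the authors' scale, and each change is one group mean minus another, ± its SE, over 4 arrays a group in limma's moderated test. Genes are said to have risen or fallen where limma's p, adjusted by Benjamini-Hochberg over all 19505 genes, lay below 0.05. Signals below 6.76, the 75th percentile of 5222 negative controls, are called below background, where the size of a change depends on that background. Ventricular cardiomyocyte markers, which define the labelled tissue, had array means of 17.35 to 17.90 over the 16 arrays, whereas all 8 T and NK cell markers and all 3 measured B cell markers were below background in each group. Replicate 16 of the 24 h group stood apart with a mean of 9.95 over 8 atrial markers, against 7.43 to 7.55 on the other 24 h arrays. In the same group, replicate 17 had the lowest macrophage marker mean, 10.12 against 10.74 to 11.72. With arrays centred on the 4 hybridization spike-ins in place of the deposited scale, the median change from sham over all genes was -0.26 at 6 h, 0.24 at 24 h and 0.40 at 72 h, against -0.04, -0.07 and -0.09 as deposited. With the 4 poly-A spike-ins it was -0.37, -0.16 and 0.09. Under hybridization spike-in centring, 975 genes were called higher and 3993 lower at 6 h, 4546 and 841 at 24 h, and 7270 and 247 at 72 h, and under poly-A centring 864 and 6087, 2033 and 2479, and 2752 and 590. As deposited these counts were 1545 and 2395, 2701 and 2392, and 2247 and 2004, and with arrays centred on their medians 1898 and 3532 at 72 h. Changes are given on the deposited scale.

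Of the 10 genes, 2 rose at 6 h, 6 at 24 h and 7 at 72 h, and 0 fell against sham at any of the 3 times. At an unadjusted p below 0.05, Gas6 was lower at 6 h and at 24 h, and it passed as lower at 6 h under 5 of the alternative settings below and without replicate 8 of the 6 h group. Among all genes, 7.92% were called higher and 12.3% lower at 6 h, 13.8% and 12.3% at 24 h, and 11.5% and 10.3% at 72 h, in sum 20.2%, 26.1% and 21.8%. All 4 arrays lay above all sham arrays for 2 of the 10 genes at 6 h, 7 at 24 h and 8 at 72 h, and for 9.06%, 12.9% and 12.7% of all genes. The median change of the 10 genes was 0.26 at 6 h, 0.89 at 24 h and 0.98 at 72 h, against -0.04, -0.07 and -0.09 over all genes. The F test over the 4 groups called 8 of the 10, against 44.5% of all genes, leaving out Tyro3 (limma adjusted p = 0.0653) and Mfge8 (limma adjusted p = 0.160).

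**Figure D1:**
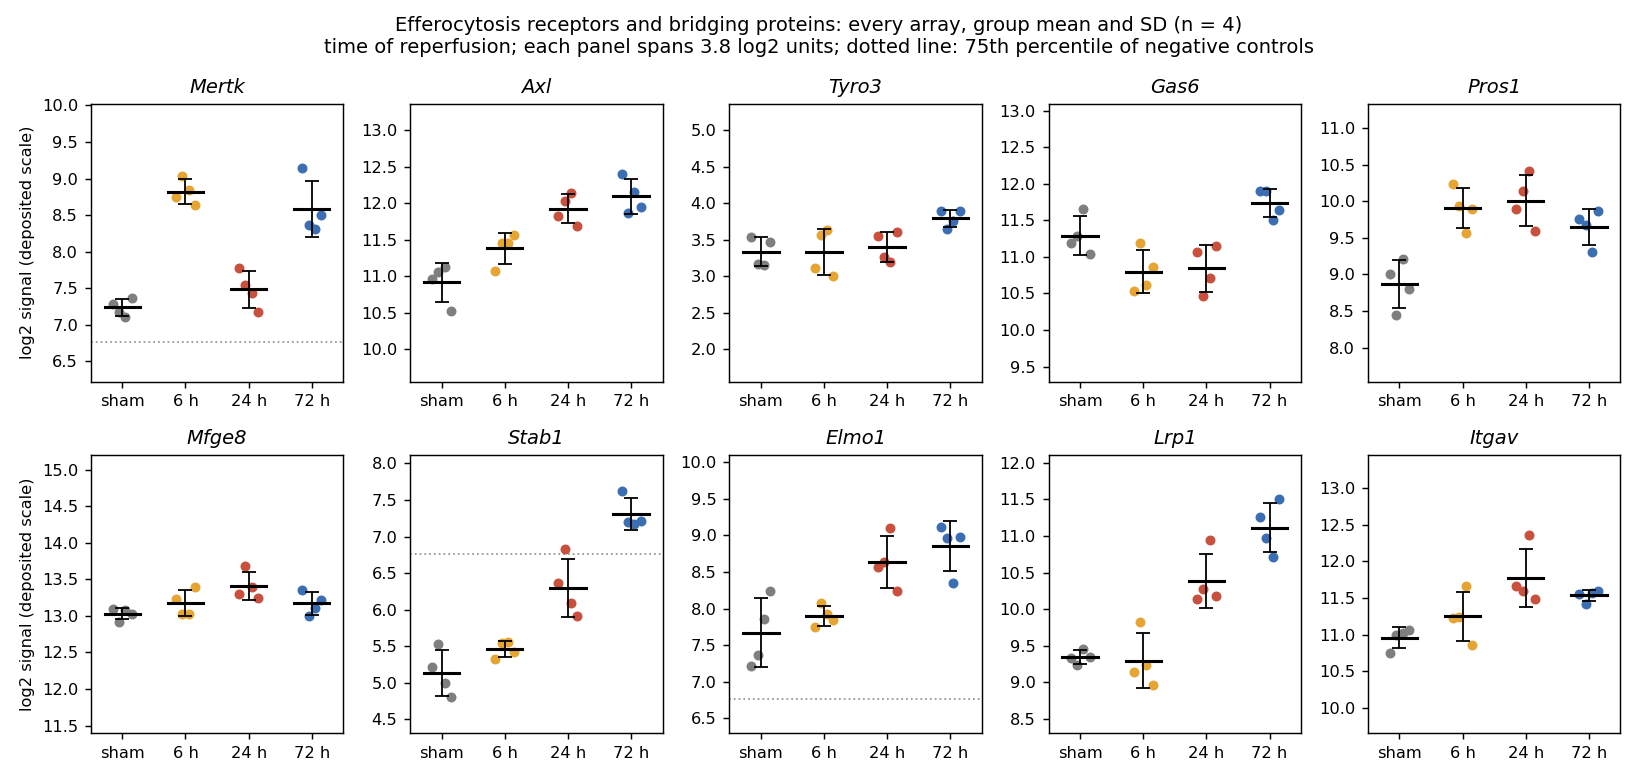
Log2 signal of each of the 10 genes on every array, by group (sham, then 6, 24 and 72 h of reperfusion). Points are arrays, bars are the group mean and SD over 4 arrays, every panel spans the same number of log2 units, and the dotted line marks the 75th percentile of the negative controls. Mertk is high at 6 h and 72 h, with means of 8.82 and 8.58, and near sham at 24 h, with a mean of 7.49.

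Mertk encodes the TAM receptor that macrophages use most for taking up apoptotic cells. In sham hearts its log2 signal was 7.29, 7.18, 7.11 and 7.37. It was 8.75, 9.04, 8.85 and 8.64 at 6 h, 7.78, 7.54, 7.44 and 7.18 at 24 h, and 9.14, 8.37, 8.31 and 8.50 at 72 h. All arrays at 6 h and at 72 h lay above all sham arrays, while the 24 h arrays overlapped those of sham. Mertk thus rose by 1.58 ± 0.18 at 6 h, 3.0-fold (limma adjusted p = 2.19e-06), and by 1.34 ± 0.18 at 72 h, 2.53-fold (limma adjusted p = 1.58e-05). At 24 h its change from sham was 0.25 ± 0.18, with a 95% interval from -0.12 to 0.62 (limma adjusted p = 0.339). Between times it was 2.52-fold lower at 24 h than at 6 h, a change of -1.33 ± 0.18 (limma adjusted p = 1.52e-05), and 2.13-fold higher at 72 h than at 24 h, a change of 1.09 ± 0.18 (limma adjusted p = 0.000308). The drop and the return were called under all 29 alternative settings, including each array left out in turn. Averaging probe sets left the Mertk values as they were, and leaving out a sham array left the size of both differences as it was. Of the 29 settings, hybridization spike-in centring alone called the 24 h value higher than sham (0.56, limma adjusted p = 0.0473). The 72 h and 6 h levels had a difference of -0.24 ± 0.18 (limma adjusted p = 0.328) on the deposited scale, which became 0.47 under hybridization spike-in centring (limma adjusted p = 0.0441) and 0.28 under poly-A spike-in centring (limma adjusted p = 0.273).

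Axl, the TAM receptor gene known for its induction in inflamed tissue and for its dependence on GAS6 as ligand, took another course. Its log2 signal was 10.96, 11.06, 11.12 and 10.52 in sham hearts, 11.07, 11.45, 11.45 and 11.56 at 6 h, 11.83, 12.03, 12.14 and 11.69 at 24 h, and 12.40, 11.87, 12.15 and 11.95 at 72 h. The 6 h arrays overlapped sham at their low end, and the 24 h and 72 h arrays all lay above sham. Axl thus rose by 1.01 ± 0.17 at 24 h, 2.01-fold (limma adjusted p = 0.000173), and by 1.17 ± 0.17 at 72 h, 2.26-fold (limma adjusted p = 4.46e-05). At 6 h the change was 0.46 ± 0.17 (limma adjusted p = 0.0618), and it passed under 5 of the 29 alternatives. One was the set without replicate 7 of the 6 h group (0.57, limma adjusted p = 0.0320). With all arrays it passed with genes filtered at the median or at the negative controls (limma adjusted p = 0.0349 and 0.0332). It also passed with limma's variance trend, without and with its robust option (limma adjusted p = 0.0435 and 0.0408). The 24 h level was above that at 6 h by 0.54 ± 0.17 (limma adjusted p = 0.0215). That call was lost without replicate 7 of the 6 h group (0.44, limma adjusted p = 0.0806), replicate 15 of the 24 h group (0.50, limma adjusted p = 0.0590) or replicate 16 of that group (0.47, limma adjusted p = 0.0673). It was also lost without replicates 16 and 17 together (0.55, limma adjusted p = 0.0579) and with arrays centred on their medians (0.44, limma adjusted p = 0.0617).

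Tyro3, the TAM receptor gene best known from the nervous system, was below background on all arrays, from 3.16 to 3.54 in sham hearts, 3.01 to 3.63 at 6 h, 3.20 to 3.61 at 24 h and 3.65 to 3.89 at 72 h. Its changes from sham were -0.01 ± 0.16 at 6 h, 0.07 ± 0.16 at 24 h and 0.46 ± 0.16 at 72 h (limma adjusted p = 0.985, 0.816 and 0.0518). The 72 h arrays all lay above those of sham, but at these signals the size of the difference has no firm scale. The 72 h change passed under 12 of 26 alternatives, among them those without sham replicate 2, 6 h replicate 8, 10 or 11, or 24 h replicate 17.

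The receptors were also compared within each array. The difference of Axl minus Mertk averaged 2.56 ± 0.27 at 6 h, against 3.68 ± 0.38 in sham (SD, n = 4 each), a shift of -1.12 (two-sided exact permutation p = 0.0286, which is the minimum for this design, adjusted p = 0.0390 over 15 such tests). At 24 h it averaged 4.44 ± 0.28, a shift of 0.76 the other way (exact permutation p = 0.0286, adjusted p = 0.0390). At 72 h it averaged 3.51 ± 0.24, a shift of -0.17 (exact permutation p = 0.457, adjusted p = 0.457). The balance of the 2 transcripts therefore moved toward Mertk at 6 h and toward Axl at 24 h relative to sham, and no array at either time overlapped the sham arrays. All 11 calls among the 15 within-array tests kept their direction with 1 array left out, but each lost its call without sham replicate 3 or sham replicate 5, and some also without other arrays (exact permutation, adjusted p = 0.0536 to 0.107). With 1 array left out the exact p can still go no lower than 0.0286, and the adjusted p then depends on how many of the 15 tests reach that value. A loss at 0.0536 came at that minimum and so does not show that a call rests on the array left out. In the losses at 0.0714 to 0.107 the exact p of the test itself lay above the minimum. Axl minus Mertk at 24 h without sham replicate 2 was one of these (exact permutation, adjusted p = 0.0714).

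**Figure D2:**
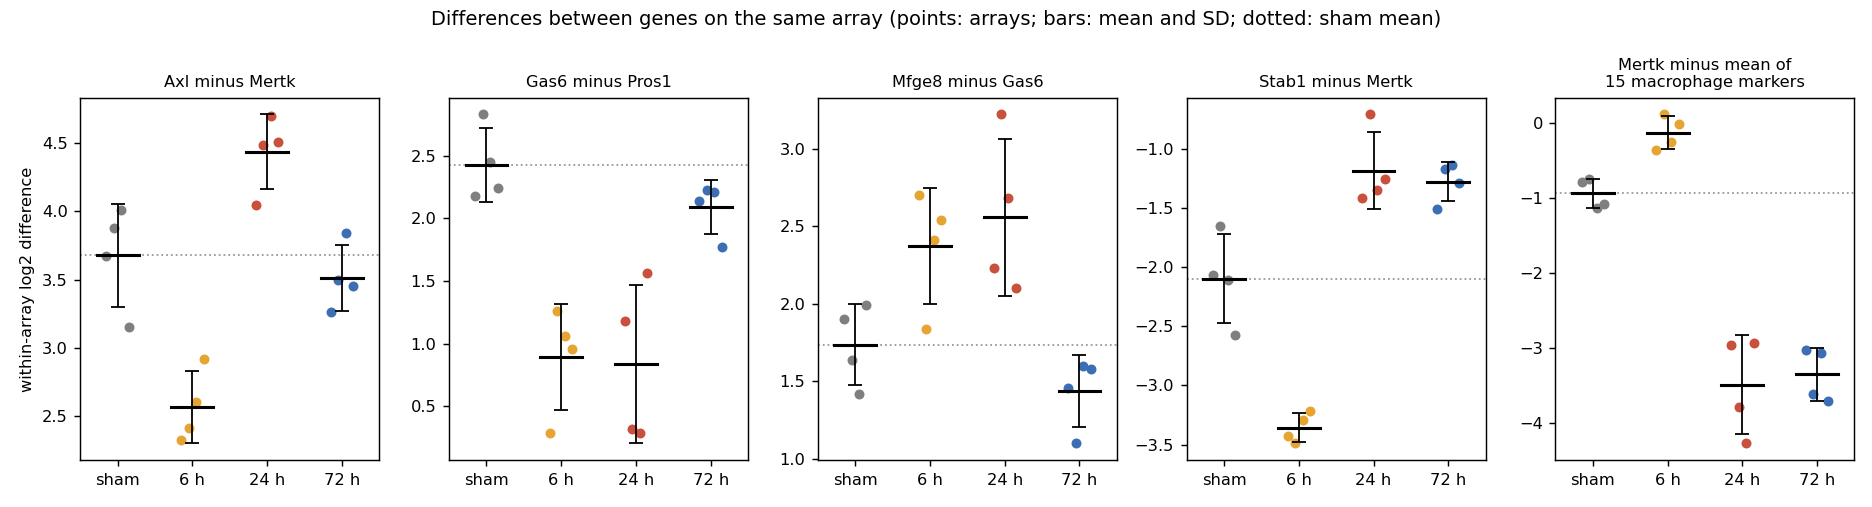
Differences between 2 genes on the same array in log2 units, for each array (points), with group mean and SD (bars, n = 4); the dotted line is the sham mean, and the last panel sets Mertk against the mean of 15 macrophage markers. Axl minus Mertk shifts by -1.12 at 6 h and 0.76 at 24 h, and Mertk minus the macrophage markers by 0.81 at 6 h, -2.56 at 24 h and -2.43 at 72 h.

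Upstream sequences of 3 genes are shown because Mertk and Axl, of a single receptor family, differed in time course, and because Stab1 was above background in the 72 h group only. They are the 250 bases before the annotated start from RefSeq (GRCm38.p6), 5′ to 3′ on the gene's strand: chr2:128698665-128698914 on the + strand for Mertk, chr7:25788734-25788983 on the - strand for Axl and chr14:31168642-31168891 on the - strand for Stab1. Capitals mark matches on either strand to GGGCGG, the GC box bound by SP1 family factors, and GAGGAA, the core bound by the myeloid factor PU.1.
Mertk: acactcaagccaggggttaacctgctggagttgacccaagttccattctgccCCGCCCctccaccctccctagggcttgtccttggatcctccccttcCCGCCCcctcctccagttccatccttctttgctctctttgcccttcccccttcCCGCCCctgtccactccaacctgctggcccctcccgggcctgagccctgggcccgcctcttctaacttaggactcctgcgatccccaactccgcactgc
Axl: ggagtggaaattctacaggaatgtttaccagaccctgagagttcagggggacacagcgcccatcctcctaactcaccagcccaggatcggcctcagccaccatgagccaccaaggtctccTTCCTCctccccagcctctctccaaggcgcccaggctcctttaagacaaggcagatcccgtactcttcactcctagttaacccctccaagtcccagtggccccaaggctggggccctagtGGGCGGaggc
Stab1: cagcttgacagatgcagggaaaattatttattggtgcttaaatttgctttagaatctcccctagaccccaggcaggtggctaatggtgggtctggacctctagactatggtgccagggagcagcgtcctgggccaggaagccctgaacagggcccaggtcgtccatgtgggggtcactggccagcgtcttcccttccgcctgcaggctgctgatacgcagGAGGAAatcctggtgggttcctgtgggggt
The Mertk window held 3 GC boxes and no GAGGAA, the Axl window 1 of each, and the Stab1 window a single GAGGAA 30 to 25 bases before the start. Over all 10 genes, 8 held GGGCGG, as did 32.7% of 32851 promoters of the table, and 4 held GAGGAA (Axl, Itgav, Mfge8 and Stab1), as did 23.3%. Further letters searched on both strands in the same windows were TGANTCA for AP-1 (0 of 10, 6.75% of all), AGGTCA for a nuclear receptor half-site (0 of 10, 14% of all) and TATAAA (Elmo1 only, 12.4% of all). The matches are letters in a window and say nothing about binding.

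Among the bridging proteins, Gas6 and Pros1 encode vitamin K-dependent proteins that link phosphatidylserine to TAM receptors: GAS6 binds all members of the family, and protein S, the product of Pros1 and an anticoagulant of plasma, binds MERTK and TYRO3. Pros1 had log2 signals of 9.01, 8.45, 9.21 and 8.80 in sham hearts, 10.24, 9.93, 9.56 and 9.90 at 6 h, 9.89, 10.14, 10.42 and 9.59 at 24 h, and 9.76, 9.67, 9.30 and 9.87 at 72 h. No reperfused array overlapped a sham array. Pros1 rose at each time, by 1.04 ± 0.20 at 6 h, 2.06-fold (limma adjusted p = 0.000808), by 1.14 ± 0.20 at 24 h, 2.21-fold (limma adjusted p = 0.000267), and by 0.78 ± 0.20 at 72 h, 1.72-fold (limma adjusted p = 0.00829). The levels at the 3 times did not differ past the threshold on the deposited scale, with limma adjusted p-values from 0.312 to 0.746. Under hybridization spike-in centring the 24 h level passed as above that at 6 h (0.63, limma adjusted p = 0.0175).

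Gas6 had log2 signals of 11.19, 11.28, 11.66 and 11.04 in sham hearts, 10.53, 11.19, 10.62 and 10.86 at 6 h, 11.07, 10.46, 10.71 and 11.15 at 24 h, and 11.90, 11.90, 11.51 and 11.64 at 72 h. Its arrays overlapped sham at each time. The changes from sham were -0.49 ± 0.19 at 6 h (limma adjusted p = 0.0748), -0.44 ± 0.19 at 24 h (limma adjusted p = 0.0917) and 0.45 ± 0.19 at 72 h (limma adjusted p = 0.100). The differences between times were larger: Gas6 at 72 h stood 0.94 ± 0.19 above 6 h, 1.91-fold (limma adjusted p = 0.000723), and 0.89 ± 0.19 above 24 h, 1.85-fold (limma adjusted p = 0.00295), with no overlap of arrays. Under hybridization spike-in centring Gas6 passed as lower than sham at 6 h (-0.71, limma adjusted p = 0.0108) and as higher at 72 h (0.94, limma adjusted p = 0.000821). Poly-A centring gave the same pair of calls (-0.83, limma adjusted p = 0.00565, and 0.63, limma adjusted p = 0.0499). The call at 6 h was also made without replicate 8 of the 6 h group (-0.62, limma adjusted p = 0.0280), and one at 24 h without replicate 17 of the 24 h group (-0.54, limma adjusted p = 0.0457).

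Within arrays, Gas6 minus Pros1 averaged 0.89 ± 0.42 at 6 h and 0.84 ± 0.63 at 24 h, against 2.43 ± 0.29 in sham (SD, n = 4 each). The shifts of -1.53 and -1.59 each had a two-sided exact permutation p of 0.0286 (adjusted p = 0.0390). At 72 h the difference averaged 2.09 ± 0.22, a shift of -0.34 (exact permutation p = 0.114, adjusted p = 0.132). The 2 TAM ligand transcripts thus changed unequally at 6 h and 24 h. At 72 h the shift did not pass with all arrays, and it passed without sham replicate 2 (-0.42, exact permutation, adjusted p = 0.0476).

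Mfge8 encodes the bridging protein that joins phosphatidylserine to alpha-v integrins through an RGD motif, and it is also made by vascular smooth muscle. Its signal was high and narrow, from 12.92 to 13.09 in sham hearts, 13.03 to 13.40 at 6 h, 13.25 to 13.68 at 24 h and 13 to 13.36 at 72 h. The 24 h arrays all lay above sham, with a change of 0.37 ± 0.14 (95% interval 0.08 to 0.67, limma adjusted p = 0.0547) that passed under 7 of the 29 alternatives, among them the array set without replicate 17 of the 24 h group (0.43, limma adjusted p = 0.0387). At 6 h and at 72 h the change was 0.14 ± 0.14, with a 95% interval of -0.15 to 0.43 at both times. Under hybridization spike-in centring the 72 h change was 0.64 and passed (limma adjusted p = 0.0112). Mfge8 minus Gas6 averaged 2.56 ± 0.51 at 24 h, against 1.74 ± 0.26 in sham (SD, n = 4 each), a shift of 0.82 (exact permutation p = 0.0286, adjusted p = 0.0390). The shifts were 0.63 at 6 h (exact permutation p = 0.0857, adjusted p = 0.107) and -0.31 at 72 h (exact permutation p = 0.143, adjusted p = 0.153). The 6 h shift passed without 6 h replicate 8 (0.81, exact permutation, adjusted p = 0.0390), and that of 72 h without sham replicate 4 (-0.41, exact permutation, adjusted p = 0.0476).

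Stab1 encodes stabilin-1, a scavenger receptor of macrophages and sinusoidal endothelium that binds phosphatidylserine directly. Its log2 signal was 5.22, 5.53, 5.0 and 4.80 in sham hearts, 5.32, 5.55, 5.56 and 5.42 at 6 h, 6.36, 6.83, 6.09 and 5.92 at 24 h, and 7.63, 7.20, 7.17 and 7.21 at 72 h. The 24 h arrays all lay above sham and the 72 h arrays all above those of 24 h. Stab1 rose by 1.16 ± 0.19 at 24 h, 2.24-fold (limma adjusted p = 0.000141), and by 2.17 ± 0.19 at 72 h, 4.49-fold (limma adjusted p = 1.29e-07), on the measured signals. Its means in sham, at 6 h and at 24 h were below background, so the size at 24 h has no firm scale, and against the background value the rise at 72 h was at least 1.45-fold. At 6 h the change was 0.32 ± 0.19 (limma adjusted p = 0.291). On the same arrays the measured signal of Stab1 minus that of Mertk moved by -1.26 at 6 h, by 0.91 at 24 h and by 0.83 at 72 h (each exact permutation p = 0.0286, adjusted p = 0.0390). Since Stab1 was below background in sham, at 6 h and at 24 h, these shifts have no firm size, and unequal change of the 2 genes is not read from them.

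Lrp1 encodes a large endocytic receptor that takes up calreticulin-coated cells and many protease complexes, and fibroblasts and smooth muscle make it as well as macrophages. Its log2 signal was 9.33, 9.24, 9.46 and 9.35 in sham hearts, 9.14, 9.83, 9.24 and 8.96 at 6 h, 10.14, 10.28, 10.94 and 10.18 at 24 h, and 11.26, 10.98, 10.72 and 11.50 at 72 h. The 24 h and 72 h arrays all lay above sham, and those at 6 h spanned it. Lrp1 rose by 1.04 ± 0.21 at 24 h, 2.05-fold (limma adjusted p = 0.000921), and by 1.77 ± 0.21 at 72 h, 3.41-fold (limma adjusted p = 4.34e-06), with -0.05 ± 0.21 at 6 h (limma adjusted p = 0.912). The 72 h level exceeded that at 24 h by 0.73 ± 0.21 (limma adjusted p = 0.0246). This last call ended without replicate 14, 15 or 17 of the 24 h group (limma adjusted p = 0.0762, 0.0692 and 0.0599) and without replicate 20 or 23 of the 72 h group (limma adjusted p = 0.0736 and 0.0934), with values of 0.60 to 0.70.

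Itgav encodes the alpha-v integrin chain, which pairs with beta-3 or beta-5 to bind MFG-E8. Its log2 signal was 10.75, 11, 11.02 and 11.06 in sham hearts, 11.22, 11.24, 11.67 and 10.86 at 6 h, 11.67, 11.60, 12.36 and 11.48 at 24 h, and 11.56, 11.42, 11.57 and 11.59 at 72 h. All arrays at 24 h and 72 h lay above sham, and replicate 16 of the 24 h group was the highest of all. Itgav rose by 0.82 ± 0.19 at 24 h, 1.77-fold (limma adjusted p = 0.00254), and by 0.58 ± 0.19 at 72 h, 1.49-fold (limma adjusted p = 0.0328), with 0.29 ± 0.19 at 6 h (limma adjusted p = 0.341). The call at 72 h ended without replicate 2, 3 or 4 of sham (limma adjusted p = 0.0964, 0.0569 and 0.0546) and without replicate 20, 22 or 23 of the 72 h group (limma adjusted p = 0.0692, 0.0626 and 0.0752). Without replicate 16 the 24 h level no longer passed as above that at 6 h (0.34, limma adjusted p = 0.154, against 0.53 ± 0.19 and 0.0390 with all arrays), and the same held without replicate 7, 8 or 11 of the 6 h group (limma adjusted p = 0.0749, 0.0647 and 0.131) and without replicate 14 of the 24 h group (limma adjusted p = 0.0527). Quantile normalization (0.51, limma adjusted p = 0.0564) and median centring (0.43, limma adjusted p = 0.0829) ended it too, and median centring also the call at 72 h against sham (0.47, limma adjusted p = 0.0644).

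Elmo1 encodes the adaptor that joins DOCK180 to activate RAC during engulfment. Its log2 signal was 7.21, 7.37, 7.86 and 8.24 in sham hearts, 7.75, 8.07, 7.92 and 7.84 at 6 h, 8.57, 8.64, 9.10 and 8.24 at 24 h, and 9.12, 8.97, 8.35 and 8.98 at 72 h. The sham spread was the widest of the 10 genes, and the lowest 24 h array lay above the highest sham array by less than the second decimal. Elmo1 rose by 0.97 ± 0.22 at 24 h, 1.96-fold (limma adjusted p = 0.00278), and by 1.19 ± 0.22 at 72 h, 2.27-fold (limma adjusted p = 0.000641). At 6 h the change was 0.22 ± 0.22 (limma adjusted p = 0.577). The 24 h level was 0.75 ± 0.22 above that at 6 h (limma adjusted p = 0.0165), a call lost without replicate 16 of the 24 h group (0.59, limma adjusted p = 0.0646) and under quantile normalization (0.54, limma adjusted p = 0.0573).

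**Figure D3:**
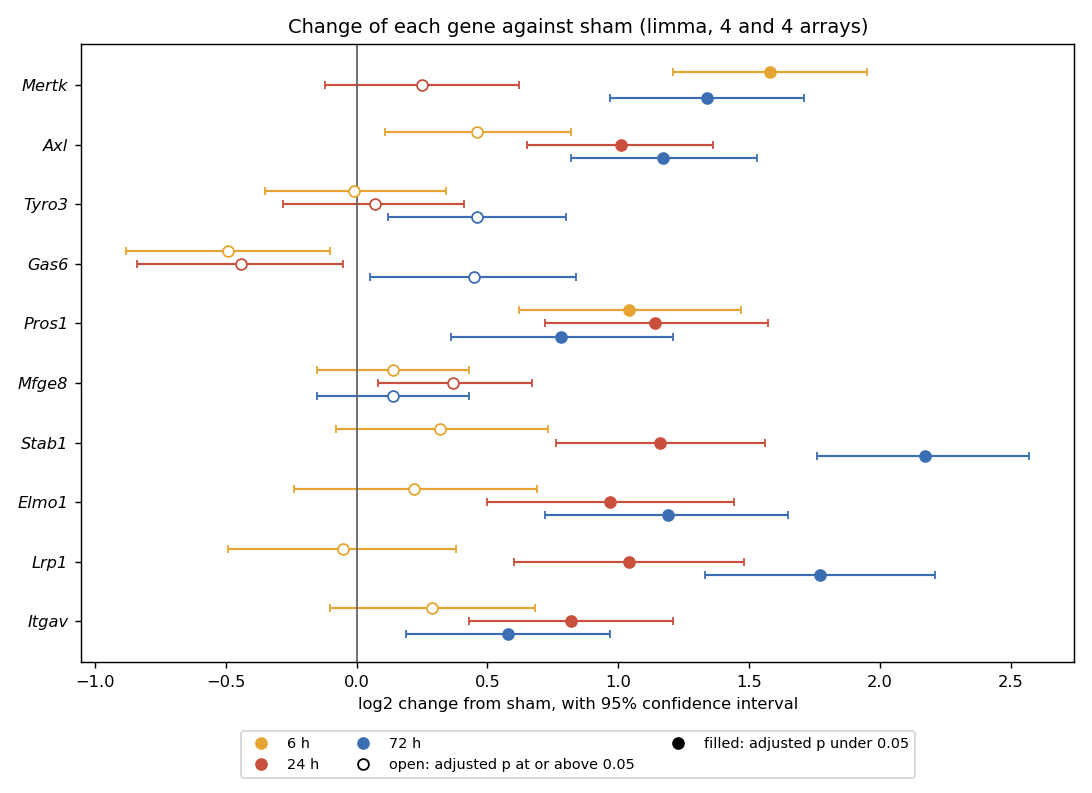
Change of each gene from sham (log2, horizontal axis) at 6, 24 and 72 h with the 95% confidence interval from limma over all 16 arrays. Filled points have an adjusted p under 0.05; Mertk is filled at 6 h (1.58) and 72 h (1.34) and open at 24 h (0.25), while Stab1 and Lrp1 reach 2.17 and 1.77 at 72 h.

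Between times, 5 of the 10 genes were higher and 1, Mertk, was lower at 24 h than at 6 h, against 17.3% and 10.9% of all genes (28.2% in either direction). The arrays did not overlap for 5 of the 10, Mertk being lower, against 15% of all genes without overlap on the higher side and 9.89% on the lower. Without replicate 16 of the 24 h group 2 were higher and 1 lower. At 72 h, 4 were higher than at 24 h (Mertk, Gas6, Stab1 and Lrp1) and 0 lower, against 6.85% and 6.07% of all genes (12.9% in either direction), and Mertk, Gas6, Stab1 and the uncalled Tyro3 had arrays without overlap (4 of 10), against 7.79% on the higher side. At 72 h, 6 were higher than at 6 h (Axl, Tyro3, Gas6, Stab1, Elmo1 and Lrp1) and 0 were lower, against 17.5% and 13.1% (30.6% in either direction), and 6 had arrays without overlap, against 17.1%. Tyro3 stood 0.47 ± 0.16 above its 6 h level (limma adjusted p = 0.0369), below background in both groups, and the call was lost when replicate 7 or 11 at 6 h, or 20, 22 or 23 at 72 h, was left out (limma adjusted p = 0.0565 to 0.126). By its group means, Mertk ran in the order 6 h, 72 h, 24 h and sham, with neither the first pair nor the last pair of neighbours past the threshold. Stab1 ran in the order 72 h, 24 h, 6 h and sham, with its last pair alone not past it.

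Markers of cell types that express these genes moved in the same hearts, and their part in the results was not tested. Of 15 monocyte and macrophage markers, 7 rose at 6 h, 14 at 24 h and 14 at 72 h. The mean log2 signal of the list was 7.93 to 8.45 on sham arrays, 8.65 to 9.11 at 6 h, 10.12 to 11.72 at 24 h and 11.38 to 12.21 at 72 h. The 6 h count was 10 higher and 1 lower without replicates 16 and 17 of the 24 h group, and likewise with only the 6 h and sham arrays fitted. With all arrays the median change of the 15 markers at 6 h was 1.02, and 0 were called lower. The largest called changes at 6 h were in the endotoxin co-receptor Cd14 (2.12 ± 0.29), Fcer1g, Mpeg1 and the PU.1 gene Spi1 (1.18 ± 0.27). Csf1r and Adgre1, not called at 6 h, had changes of -0.63 (limma adjusted p = 0.0730) and -0.39 (limma adjusted p = 0.156). By 72 h Csf1r and Adgre1 had risen by 2.63 and 2.68. At 24 h the macrophage list had 14 of 15 members higher while Mertk did not pass.

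Of the 15 markers, 5 were below background in sham and 2 at 6 h, so differences from their mean have no firm size. Set against that mean on the same array, Mertk moved by 0.81 at 6 h, by -2.56 at 24 h and by -2.43 at 72 h relative to sham (each two-sided exact permutation p = 0.0286, adjusted p = 0.0390). The arrays at each of the 3 times did not overlap those of sham: -0.36 to 0.11 at 6 h, -4.29 to -2.94 at 24 h and -3.71 to -3.04 at 72 h, against -1.13 to -0.75 in sham. As values without a test, the other 9 genes, of which Tyro3 and Stab1 were themselves below background in sham, each had a smaller measured change than the marker mean at 24 h and at 72 h. For Lrp1 the difference was -1.77 and -2.0, and for Gas6 -3.25 and -3.32 log2 units.

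Other marker lists had courses of their own. Of 9 resident cardiac macrophage markers, 3 rose and 1 fell at 6 h (2 and 0 without replicate 5 of sham), 4 and 1 at 24 h, and 7 and 1 at 72 h. The hyaluronan receptor Lyve1 rose by 1.23 ± 0.27 at 6 h and fell by 1.56 at 72 h, and Cd163, the hemoglobin scavenger receptor, rose by 0.74 ± 0.23 at 6 h and changed by -1.14 ± 0.23 at 24 h. The mannose receptor Mrc1 rose at each time, by 1.10, 1.39 and 2.30. Of 10 neutrophil markers, 7 rose at 6 h, 8 at 24 h and 3 at 72 h, the last count being 5 without 24 h replicates 16 and 17. That count was 6 under hybridization spike-in centring, and also 6 with only the 72 h and sham arrays fitted. The neutrophil markers had array means of 4.29 to 4.93 in sham hearts, 7.29 to 8.98 at 6 h, 6.54 to 9.06 at 24 h and 5.30 to 6.71 at 72 h. Of 9 fibroblast markers, 1 rose and 2 fell at 6 h (1 and 0 without sham replicate 5 or 6 h replicate 11), 5 and 1 at 24 h, and 8 and 0 at 72 h. They had array means of 11.02 to 11.44, 10.54 to 11.17, 11.33 to 12.13 and 13.62 to 14.02 in the same order, and the collagen genes Col1a1 and Col3a1 rose by 5.78 ± 0.22 and 5.54 ± 0.29 at 72 h. Endothelial markers, 9 measured, had array means of 11.89 to 12.54, with 2 higher and 2 lower at 6 h and 4 lower at 24 h and at 72 h, but the 72 h count was 1 higher and 0 lower with the hybridization spike-ins as the scale, and 0 higher and 1 lower with those for poly-A. Of 9 smooth muscle and pericyte markers, 4, 4 and 3 fell at 6, 24 and 72 h, and 0, 1 and 1 rose. Of 10 cardiomyocyte markers, 0, 5 and 4 fell and 0 rose, the last count being 2 without 72 h replicate 21 or 23 and 0 under poly-A centring. Under hybridization spike-in centring 1 fell at 24 h, and under poly-A centring 2 fell at 6 h. Of 8 atrial markers, 1 rose at each time, and 0, 1 and 2 fell.

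**Figure D4:**
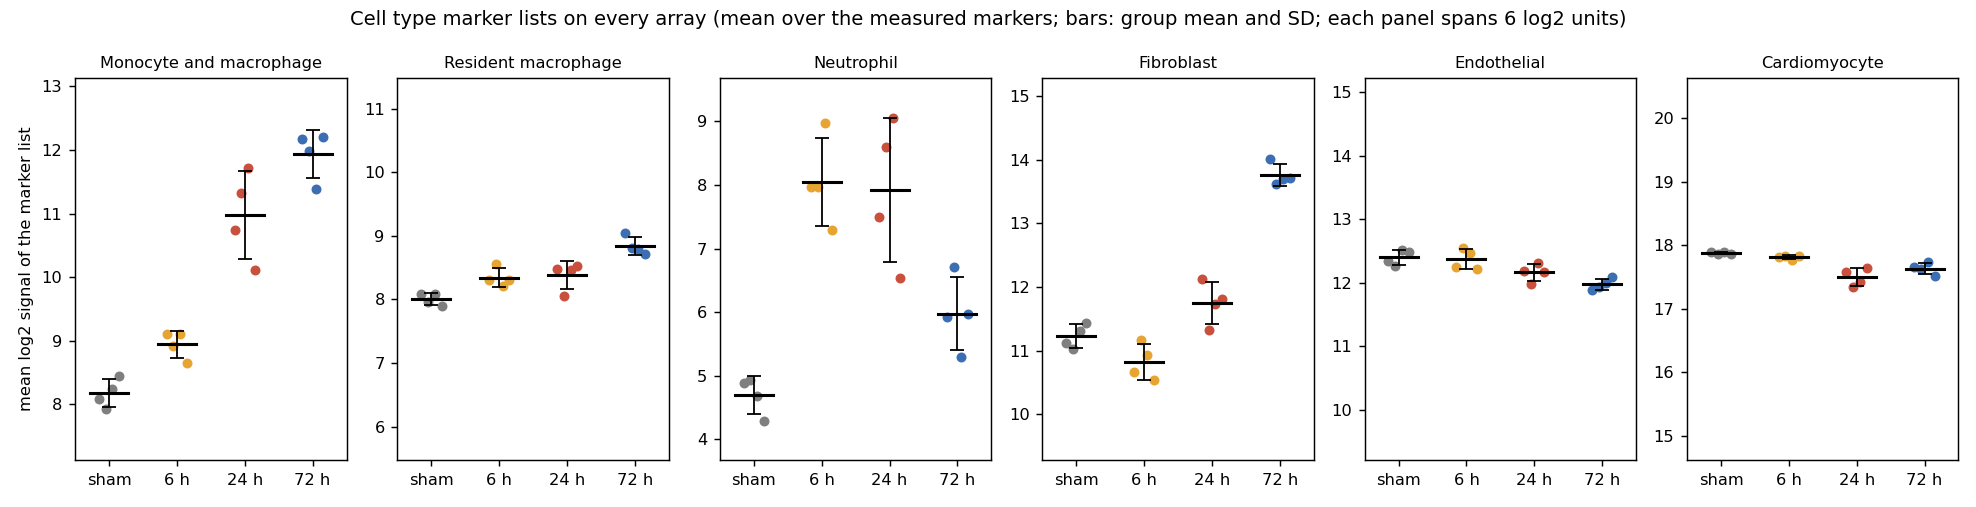
Mean log2 signal of 6 cell type marker lists on every array (points) by group, with group mean and SD (bars, n = 4); every panel spans 6 log2 units. Macrophage markers rise at 24 and 72 h to array means of 10.12 to 12.21, neutrophil markers are highest at 6 and 24 h, and fibroblast markers reach 13.62 to 14.02 at 72 h.

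Other receptors of dying cells were taken from a list of 21 genes. Of these, 7 rose and 1 fell at 6 h, 10 and 1 at 24 h, and 10 and 1 at 72 h, with medians of 0.25, 0.48 and 0.80, and the 6 h count was 5 and 0 without replicate 10 of the 6 h group. The CR3 chain Itgam rose by 3.29 ± 0.39, 5.29 ± 0.39 and 4.51 ± 0.39 at the 3 times, and the class A scavenger receptor Msr1 by 2.72 ± 0.38, 4.58 ± 0.38 and 3.38 ± 0.38. Trem2, a lipid-sensing receptor of macrophages, rose by 2.26 ± 0.37 at 24 h and 5.36 ± 0.37 at 72 h. The phosphatidylserine receptor gene Cd300lf rose by 2.88 ± 0.46 at 6 h, and Havcr2, which encodes TIM-3, by 1.52 ± 0.23. Among partners of alpha-v, the beta-3 gene Itgb3 rose at each time, by 1.06, 0.88 and 1.15, and the beta-5 gene Itgb5 by 1.03 ± 0.17 at 72 h. Cd36, a scavenger receptor gene that muscle also uses for fatty acid uptake, changed by -0.42 ± 0.15 at 24 h and -0.57 ± 0.15 at 72 h. In sham Itgam, Msr1, Trem2, Havcr2 and Itgb3 were below background.

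Of 15 other bridging proteins and eat-me signals, 4 rose at 6 h, 8 at 24 h and 7 at 72 h, and 0 fell past the threshold. Thrombospondin 1 (Thbs1), which can bridge dying cells to CD36 and alpha-v integrins, rose by 8.92 ± 0.43, 5.07 ± 0.43 and 4.66 ± 0.43 from a sham mean below background. The complement C1q chain genes C1qa, C1qb and C1qc rose by 1.57, 1.33 and 1.11 at 24 h and by 3.34, 3.44 and 3.25 at 72 h, and at 6 h C1qb alone of these passed (0.64 ± 0.22, limma adjusted p = 0.0428). Annexin A1 (Anxa1), released by dying neutrophils, rose by 1.17, 1.98 and 2.41. Calreticulin (Calr), the surface signal read by LRP1, rose by 1.01 ± 0.15 at 24 h.

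Find-me signals and their receptors, 9 measured, had 4 higher and 1 lower at 6 h, 4 and 1 at 24 h and 5 and 1 at 72 h. Sphk1, which makes the attractant sphingosine 1-phosphate, rose by 3.74 ± 0.18 at 6 h, and the receptor gene S1pr1 by 2.01 ± 0.24. The fractalkine receptor Cx3cr1 changed by -0.89 ± 0.20 at 6 h and rose by 1.58 ± 0.20 at 72 h, and the nucleotide channel gene Panx1 rose by 2.24 ± 0.18 at 72 h. P2ry6 had the largest called change of the list at 24 h and at 72 h, 1.85 ± 0.31 and 2.54 ± 0.31. The 24 h count was 3 and 0 when sham replicate 2 or 4, or 24 h replicate 16, was left out. Of 6 scramblase and flippase genes, 2 rose and 1 fell at 6 h, 1 and 1 at 24 h and 1 and 0 at 72 h. Plscr1 had the largest change of this list at 6 h, 3.54 ± 0.21 (limma adjusted p = 8.72e-10). The phospholipid scramblase Ano6, needed for phosphatidylserine exposure on activated platelets, rose by 1.22, 0.66 and 0.72. The flippase Atp11a was the member called lower at 24 h, and it lost that call when sham replicate 3, 4 or 5, or 24 h replicate 15 or 16, was left out.

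Don't-eat-me signals and their receptors, 9 measured, had 2 higher and 1 lower at 6 h, 3 and 0 at 24 h and 4 and 0 at 72 h. Sirpa, the macrophage receptor of CD47, changed by -0.82 ± 0.24 at 6 h and rose by 1.79 ± 0.24 at 24 h and 2.57 ± 0.24 at 72 h. Cd47 itself rose by 0.66 ± 0.15 at 72 h. Cd24a rose at each time, by 1.2, 3.07 and 1.61, and Cd200r1 by 2.34 ± 0.27 at 24 h and 2.71 ± 0.27 at 72 h.

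Of 18 genes of the engulfment machinery, 2 rose and 1 fell at 6 h, 10 and 1 at 24 h, and 8 and 1 at 72 h, with medians of 0.17, 0.51 and 0.35. The 6 h count was 3 and 2 when sham replicate 5 or 72 h replicate 23 was left out, 4 and 1 without replicate 11 of the 6 h group or replicate 16 of the 24 h group, and 4 and 2 without replicate 17 of the 24 h group. The blood cell genes Rac2, Dock2 and Vav1 rose by 3.38 ± 0.38, 2.49 ± 0.32 and 2.36 ± 0.30 at 24 h, and by 3.40, 2.75 and 2.48 at 72 h. Rhog, which acts upstream of ELMO1, rose by 1.62 ± 0.27 at 24 h and 2.01 ± 0.27 at 72 h. Elmo2 rose by 0.95 ± 0.20 and 0.70 ± 0.20 at these times. Gulp1, an adaptor of LRP1 and stabilin receptors, changed by -1.30 ± 0.20 at 6 h. Mfn2, a mitochondrial fusion gene abundant in muscle, changed by -0.87 ± 0.13 at 24 h.

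Ectodomain shedding by ADAM17 is known to remove MERTK from the macrophage surface, and TIMP3 inhibits that protease. Timp3 rose by 2.04 ± 0.17 at 6 h (limma adjusted p = 3.72e-08), fell by 1.88 on the log2 scale at 24 h (limma adjusted p = 1.91e-07) and was at -0.23 ± 0.17 at 72 h (limma adjusted p = 0.360). Adam10 rose by 0.77 ± 0.19 at 24 h and 1.12 ± 0.19 at 72 h. Adam17 changed by -0.41 ± 0.18 at 6 h (limma adjusted p = 0.137), 0.44 ± 0.18 at 24 h (limma adjusted p = 0.0884) and 0.59 ± 0.18 at 72 h (limma adjusted p = 0.0255), and its level at 24 h exceeded that at 6 h by 0.85 ± 0.18 (limma adjusted p = 0.00164). The 72 h count of this list, 2 of 5 higher, was 1 when sham replicate 3 or 4, or 72 h replicate 20 or 23, was left out. That of 6 h, 1 higher and 0 lower, was 1 and 1 without replicate 8 or 10 of the 6 h group. No protein was measured. The further genes named with sham means below background were Sphk1, Cx3cr1, Panx1, P2ry6, Cd24a, Cd200r1, Rac2, Dock2, Vav1 and Cd14.

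Of 9 genes of TAM receptor signalling and ligand carboxylation, 2 rose and 2 fell at 6 h (2 and 0 without replicate 7 or 11 of the 6 h group), 4 and 2 at 24 h, and 3 and 1 at 72 h. Vkorc1, which recycles the vitamin K needed to carboxylate GAS6 and protein S, changed by -0.73 ± 0.23 at 6 h and rose by 1.27 ± 0.23 at 24 h and 2.49 ± 0.23 at 72 h. The feedback inhibitor Socs3, a TAM target in dendritic cells, rose by 1.63 ± 0.25 at 6 h, below background in sham. Pik3r1, a PI3 kinase subunit gene, changed by -1.42 ± 0.22 at 24 h.

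Cargo digestion and lipid handling genes, 23 measured, had 3 higher and 6 lower at 6 h, 6 and 4 at 24 h (3 and 3 when sham replicate 2 or 24 h replicate 16 was left out) and 10 and 0 at 72 h. At 6 h the lipid sensor Pparg rose by 1.84 ± 0.15, while Nr1h3, which encodes LXR-alpha, an activator of Mertk transcription in macrophages, changed by -1.21 ± 0.18 and its partner Rxra by -0.82 ± 0.19. At 72 h the NADPH oxidase gene Cybb rose by 3.49 ± 0.25, the lysosomal protease Lgmn by 2.67 ± 0.20, the lysosomal lipase Lipa by 2.30 ± 0.19 and the cholesterol carrier Npc2 by 2.10 ± 0.19. The cholesterol exporter Abca1 changed by -0.77 ± 0.25 at 24 h and rose by 1.36 ± 0.25 at 72 h. Under hybridization spike-in centring the 72 h counts of the digestion and engulfment lists were 16 and 0, and 14 and 1.

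**Figure D5:**
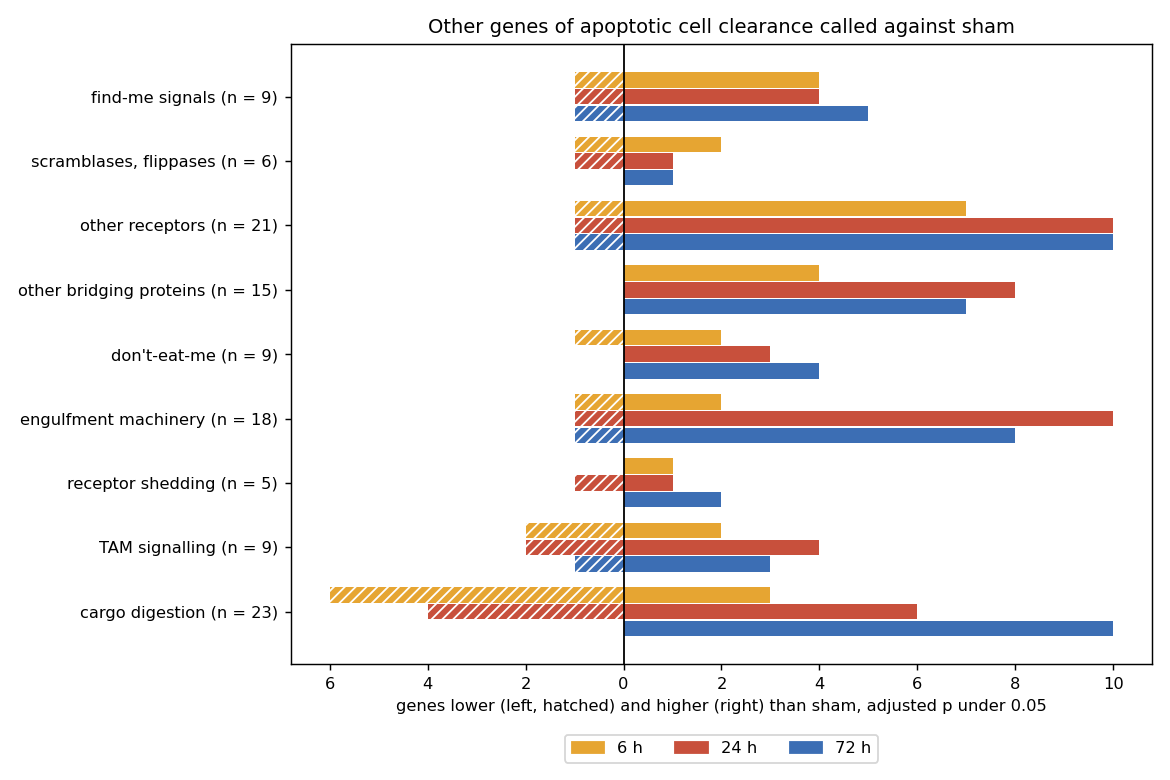
Number of genes called higher (right) or lower (left, hatched) than sham in 9 further lists of apoptotic cell clearance at 6, 24 and 72 h (limma adjusted p under 0.05); n is the number of measured genes. The engulfment list has 2 higher at 6 h and 10 at 24 h, and the digestion list 6 lower at 6 h and 0 lower at 72 h.

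Genes whose course over the 16 arrays lay closest to that of a member were sought by the root mean square difference of log2 values, each gene set to its own sham mean, for the 6 members whose group means spanned at least 1 log2 unit. The distances are a description, and the arrays share the same groups. Closest to Mertk was the actin-binding calponin gene Cnn3, at 0.29, with changes of 1.64, 0.39 and 1.10 at 6, 24 and 72 h, and the amino acid transporter Slc1a5 lay at 0.35 along with Adap2. Stab1 lay nearest to Epsti1 at 0.33, Lipa at 0.34 and Renbp at 0.35. The genes nearest to Lrp1 were Sh3bgrl at 0.24 and the lysosomal genes Cln3 and Asah1, each at 0.25. Elmo1 was closest to the translation elongation factor gene Eef1a1 at 0.21, Rmrp at 0.22 and the ribosomal protein gene Rpl10a at 0.23. Axl had Map11 and the elongation factor gene Eef1b2 at 0.25 and Eef1a1 at 0.26. Pros1 had the RNA-binding protein gene Rbms1 at 0.22, the mitochondrial folate enzyme gene Mthfd1l at 0.24 and the tRNA methyltransferase subunit gene Trmt6 at 0.26.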

How the data were processed

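RNA of 16 hearts was measured on 16 Affymetrix arrays. The deposited table holds 28846 probe sets as log2 values, which the authors made with Affymetrix Expression Console per the submitters' processing notes. For its version, summarization and filters the sources used here say nothing; base 2 was assumed, and values ran from 1.83 to 19.82, so folds hold on the authors' scale. No pair of the arrays was identical. The probe identifiers are not those of the array named in the design text and were followed, as were the sample labels where the series title gives other hours. A single gene symbol was given for 19572 probe sets, several for 0 and none here for 9274. The brightest probe set was kept for 55 genes with several.

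Group means were fitted with limma 3.58.1 (R 4.3.3; 12 residual and 6.943 prior degrees of freedom; median SE 0.183). The number of arrays limits the precision, and p-values measure the spread between hearts. Replicate numbers are not shared between groups. In a simulation of 24 h against sham over 19505 genes, 50 genes were changed at each of 0.5, 1, 2 and 3 log2 units. Of these, 14% were recovered at 0.5, 70% at 1 and 100% at 2 and at 3, with 12 false calls among 154. Far fewer genes were changed there than the 26.1% called in the data, which makes the adjusted threshold stricter. The recovered shares therefore do not measure recovery in the data. Differences within arrays were tested by exact permutation. Of the further lists, 15 genes were not measured here.

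Members and lists were chosen with earlier results of these data known. Named genes of a list were taken from those past the threshold with the largest change, up to 4 a comparison. Not every such gene is named. Adgre1, Cd36, Itgb3, Elmo2 and Mfn2, and the values of named genes in further comparisons, were chosen after their values were seen. The 3 genes nearest to a member were named for members whose group means spanned at least 1 log2 unit.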

Additional observations from a re-analysis of the deposited data

Results flagged for a closer look

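Among 40 groups of 4 arrays, 2 held an array far from the other 3 by Dixon's test, where chance gives about 1 in 20. Stab1 on replicate 20 of the 72 h group was at 7.63, against 7.17 to 7.21 on the other 72 h arrays. Lrp1 on replicate 16 of the 24 h group was at 10.94, against 10.14 to 10.28 on the other 24 h arrays.

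The change from sham differed between 2 times of reperfusion, by limma's test of that difference at an adjusted p below 0.05, for the genes given next. Among all genes, 28.2% were called at 24 h relative to 6 h, 12.9% at 72 h relative to 24 h and 30.6% at 72 h relative to 6 h. At 24 h relative to 6 h the difference was -1.33 for Mertk, 0.54 for Axl, 0.84 for Stab1, 0.75 for Elmo1, 1.09 for Lrp1 and 0.53 for Itgav. At 72 h relative to 24 h it was 1.09 for Mertk, 0.89 for Gas6, 1.00 for Stab1 and 0.73 for Lrp1. At 72 h relative to 6 h it was 0.71 for Axl, 0.47 for Tyro3, 0.94 for Gas6, 1.84 for Stab1, 0.96 for Elmo1 and 1.82 for Lrp1. Tyro3 was below background in all groups and Stab1 in all but the 72 h group, so the sizes of their differences are not firm.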

How the results depend on the processing

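Of 31 called gene results, 25 kept their call and direction under all alternatives tried. Of 29 results not called, 14 kept their direction under all alternatives, and 15 never gained a call in the direction seen on the deposited scale. The count of changed genes at 6 h against sham was 4 (3 higher, 1 lower) with genes filtered at the median or at the negative controls. At 24 h against 6 h it was 6 on the deposited scale, and 3 to 6 with 1 array left out. It was 10 under hybridization spike-in centring, 7 under poly-A centring, and 4 (3 higher, 1 lower) under quantile normalization and under median centring. Of all 19505 genes, hybridization spike-in centring called 9813 higher and 539 lower in this comparison, and poly-A centring 4882 and 831. Quantile normalization called 2886 and 2452, median centring 2741 and 3290, and the deposited scale 3372 and 2135. With 1 array left out, the within-array shift at 6, 24 and 72 h was -1.30 to -1.01, 0.58 to 0.89 and -0.34 to -0.05 for Axl minus Mertk, -1.66 to -1.33, -1.83 to -1.41 and -0.42 to -0.20 for Gas6 minus Pros1, 0.52 to 0.81, 0.60 to 0.97 and -0.41 to -0.19 for Mfge8 minus Gas6, -1.42 to -1.11, 0.75 to 1.06 and 0.67 to 0.98 for Stab1 minus Mertk, and 0.73 to 0.88, -2.74 to -2.29 and -2.53 to -2.31 for Mertk minus the macrophage markers. Without 24 h replicates 16 and 17 together, an alternative chosen after seeing the data, the 24 h shifts were 0.59, -1.67, 0.99, 1.04 and -2.44 in the same order, with exact permutation adjusted p = 0.100 to 0.153. With 2 against 4 arrays the smallest exact p is 0.0667, so none could pass and these p-values say nothing about stability.

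Differences not called on the deposited scale turned in direction as follows, and the cause was not tested. Under hybridization spike-in centring the 72 h minus 6 h difference was 0.47 for Mertk, 0.46 for Pros1 and 0.72 for Mfge8 (called for Mertk and Mfge8, limma adjusted p = 0.0441 and 0.00228), and Mfge8 at 6 h against sham was -0.08. Under poly-A centring these were 0.28, 0.27, 0.52 (called, limma adjusted p = 0.0192) and -0.20, Tyro3 at 24 h was -0.03, Stab1, Elmo1 and Itgav at 6 h were -0.01, -0.11 and -0.05, and 72 h minus 24 h was 0.05 for Mfge8 and 0.04 for Itgav. With medians centred, Tyro3 was 0.02 at 6 h, -0.01 at 24 h and -0.03 for 24 h minus 6 h, where Gas6 was -0.06 and Pros1 0.00. Quantile normalization gave -0.02 for Gas6 and -0.02 for Pros1 there, 0.00 for Mfge8 at 72 h minus 6 h and 0.02 for Lrp1 at 6 h. Without replicates 16 and 17, Gas6 at 24 h minus 6 h was -0.04.

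With 1 array left out, 24 h minus 6 h ranged from -0.03 to 0.18 for Tyro3, -0.05 to 0.18 for Gas6 and -0.03 to 0.24 for Pros1, and 72 h minus 6 h from -0.06 to 0.08 for Mfge8. At 6 h against sham the range was -0.11 to 0.10 for Tyro3 and -0.23 to 0.06 for Lrp1.

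No paired analysis was possible because no replicate number is shared between groups. Base 2, the hours after sham surgery and the cells that hold each transcript are not given, and signals near background limit Tyro3 and Stab1.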
